A study of Mus musculus with 4 samples.

Results

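The genes for subunits of the phagocyte NADPH oxidase were examined in ATAC-seq peak lists of myeloid-derived suppressor cells (MDSCs), through 5 members: Cybb, Cyba, Ncf1, Ncf4 and Rac2. Every peak overlapping the gene body of a member, extended by 10 kb on each side, was taken, and peaks of different libraries were merged where they overlapped by 1 bp or more. This gave 20 regions of 45299 in the whole series, with 3 at Cybb, 3 at Cyba, 4 at Ncf1, 7 at Ncf4 and 3 at Rac2. Letters after a gene's name, as in Ncf4 d, number its regions by rising coordinate. ATAC-seq maps open chromatin by letting the Tn5 transposase insert sequencing adapters into accessible DNA. MDSCs, myeloid cells that have not matured, accumulate in tumour-bearing hosts and dampen T cells. Mice received EL4 cells, a lymphoma line of T cell origin, and 14 days later the Gr1+CD11b+ cells were sorted by flow cytometry from the ascites. The mice of 1 group were wild type (WT, 2 libraries) and those of the other lacked Sphk2 (Sphk2 KO, 2 libraries), which encodes a kinase that phosphorylates sphingosine. All mice of both groups carried the tumour, and no group without one was analysed here. The mice's strain, sex and age, the design of the deleted allele and the number of animals behind a library are not given in the sources used here. The libraries are labelled biological replicates but not tied to animals, so a p-value measures the spread between libraries only.

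The oxidase makes superoxide from oxygen with electrons taken from NADPH, and neutrophils and monocytes use it to kill microbes. Cybb encodes gp91phox, the catalytic chain, and Cyba encodes p22phox, which pairs with it in the membrane. Ncf1 encodes p47phox, the organiser that docks on p22phox once phosphorylated, and Ncf4 encodes p40phox, which binds a phosphoinositide of the phagosome membrane. Rac2 encodes the GTPase of blood cells that switches the assembled complex on. In MDSCs the oxidants that this enzyme makes are known as a means of restraining T cells.

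Retained fragments ranged from 25877428 to 34443062 per library, with fewer in both Sphk2 KO libraries, and the lists held 20759 to 31843 peaks. A peak carries the authors' −log10 q, where a higher value is a stronger call against local background and 1.3 is the caller's limit, and a fold enrichment, the pileup of fragments over that background. These are the peak's own values within its list, set side by side below as a description, and those of a genotype's pair of libraries are given with replicate 1 first. A weaker or missing peak cannot be told apart from fewer cells with the site open. Of 12 myeloid markers, 9 had a gene-end peak, one at most 1 kb from either end of the gene, in all 4 libraries, among them Itgam, the CD11b gene. Over all protein-coding genes, 41.6% had a gene-end peak in all 4 libraries. Ly6g, a target of the Gr1 antibody, had none in any library, Csf3r had one in WT replicate 1 alone, and Ly6c2 lacked one in Sphk2 KO replicate 1. Of 12 T cell markers, 7 had such a peak in WT replicate 2 and 3 in each of the other libraries. The shares of all protein-coding genes with a gene-end peak were 47.9% and 48.8% in the WT pair and 42.6% and 47.3% in the knockout pair. Cd3e, Cd3g, Lck and Tcf7 had no such peak, while Cd3d had one of −log10 q 104 to 198 in every library. Of 6 B cell markers none had one. WT replicate 2 thus held more called T cell markers than the other libraries. The part of other cells in the results was not tested.

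Sequences before the start sites show where the peaks of the oxidase genes do and do not lie. RefSeq promoters (GRCm38.p6, the mm10 assembly) were at hand for 3 of the 5 members, all on the minus strand, and the 250 bases before each start are printed 5′ to 3′. Capitals mark matches to any of 6 motifs searched on both strands: GAGGAA (PU.1), TTGCNNAA (C/EBP), TGANTCA (AP-1), CCAAT, the interferon response pattern (GAAA, any 2 bases, GAAA) and ACCACA (RUNX). The Cybb stretch, chrX:9469325-9469574, lay under no peak in any library. The Cyba stretch, chr8:122432941-122433190, lay wholly under a region called in all 4 libraries. The Ncf1 stretch, chr5:134229626-134229875, lay, for 240 of its 250 bases, under a region called in WT only.
Cybb: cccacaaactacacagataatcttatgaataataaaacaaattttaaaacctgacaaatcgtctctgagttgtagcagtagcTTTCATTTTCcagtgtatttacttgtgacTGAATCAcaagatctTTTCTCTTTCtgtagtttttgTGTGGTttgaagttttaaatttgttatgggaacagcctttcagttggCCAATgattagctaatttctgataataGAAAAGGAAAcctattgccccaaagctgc
Cyba: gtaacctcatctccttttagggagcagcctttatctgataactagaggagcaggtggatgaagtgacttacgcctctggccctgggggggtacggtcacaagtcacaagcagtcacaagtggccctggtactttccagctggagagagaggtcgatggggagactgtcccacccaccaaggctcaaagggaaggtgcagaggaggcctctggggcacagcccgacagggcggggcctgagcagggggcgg
Ncf1: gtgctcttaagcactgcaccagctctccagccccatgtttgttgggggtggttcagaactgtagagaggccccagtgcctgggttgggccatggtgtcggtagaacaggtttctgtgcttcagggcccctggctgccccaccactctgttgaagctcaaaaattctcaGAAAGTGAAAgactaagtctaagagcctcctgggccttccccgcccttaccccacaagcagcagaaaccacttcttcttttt
The interferon response pattern matched 3 times in Cybb, beginning 168, 124 and 29 bases before the start, and once in Ncf1, 82 bases before it. A match to that pattern occurred in 2.98% of the 32851 promoter stretches of the same length. Cybb also matched CCAAT once (33.8% of promoters), AP-1 once (6.75%) and RUNX once (14%). Its AP-1 match began 139 bases before the start and its CCAAT match 56 bases before it. Neither GAGGAA (23.3% of promoters) nor TTGCNNAA (9.56%) matched in any of the 3 stretches, and Cyba matched none of the 6 patterns. The stretches also differed in composition, with a GC content of 34% in Cybb, 60% in Cyba and 54.4% in Ncf1, beside a median of 52.4% over all promoters. Matches are a description of these letters and not of binding.

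Which regions at the oxidase genes were called in one genotype and not in the other was the question the design poses. Of the 20 regions, 13 were called in all 4 libraries (37.5% of all regions in the series were). Both WT but neither Sphk2 KO library called 4 of the 20 (5.43% of all regions), hereafter WT-only, with 2 at Cybb, 1 at Ncf1 and 1 at Ncf4. The count is above that share but rests on 4 regions of 3 genes. With WT replicate 1 left out it was 4 of 19 (23.5% of all regions), and with WT replicate 2 left out 5 of 20 (23.8%), so with a single WT library the count stood near the share over all regions. No region was called in both Sphk2 KO and in neither WT library (0.605% of all regions). The other 3 were called in 1 or 2 libraries. The regions numbered 19 in WT replicate 1, 18 in WT replicate 2, 13 in Sphk2 KO replicate 1 and 15 in Sphk2 KO replicate 2, so both WT libraries held more. The means were 18.5 ± 0.707 and 14 ± 1.41 (SD, n = 2 libraries each), for which the two-sided exact permutation p was 0.333, the smallest that 2 libraries against 2 allow. The Sphk2 KO mean was 75.7% of the WT mean at the oxidase genes and 76.3% of it over all regions of the series, so the total was lower in nearly the proportion seen elsewhere. Cyba, with a mean of 2.5 regions, and Rac2, with 3, had equal means in both genotypes.

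**Figure D1:**
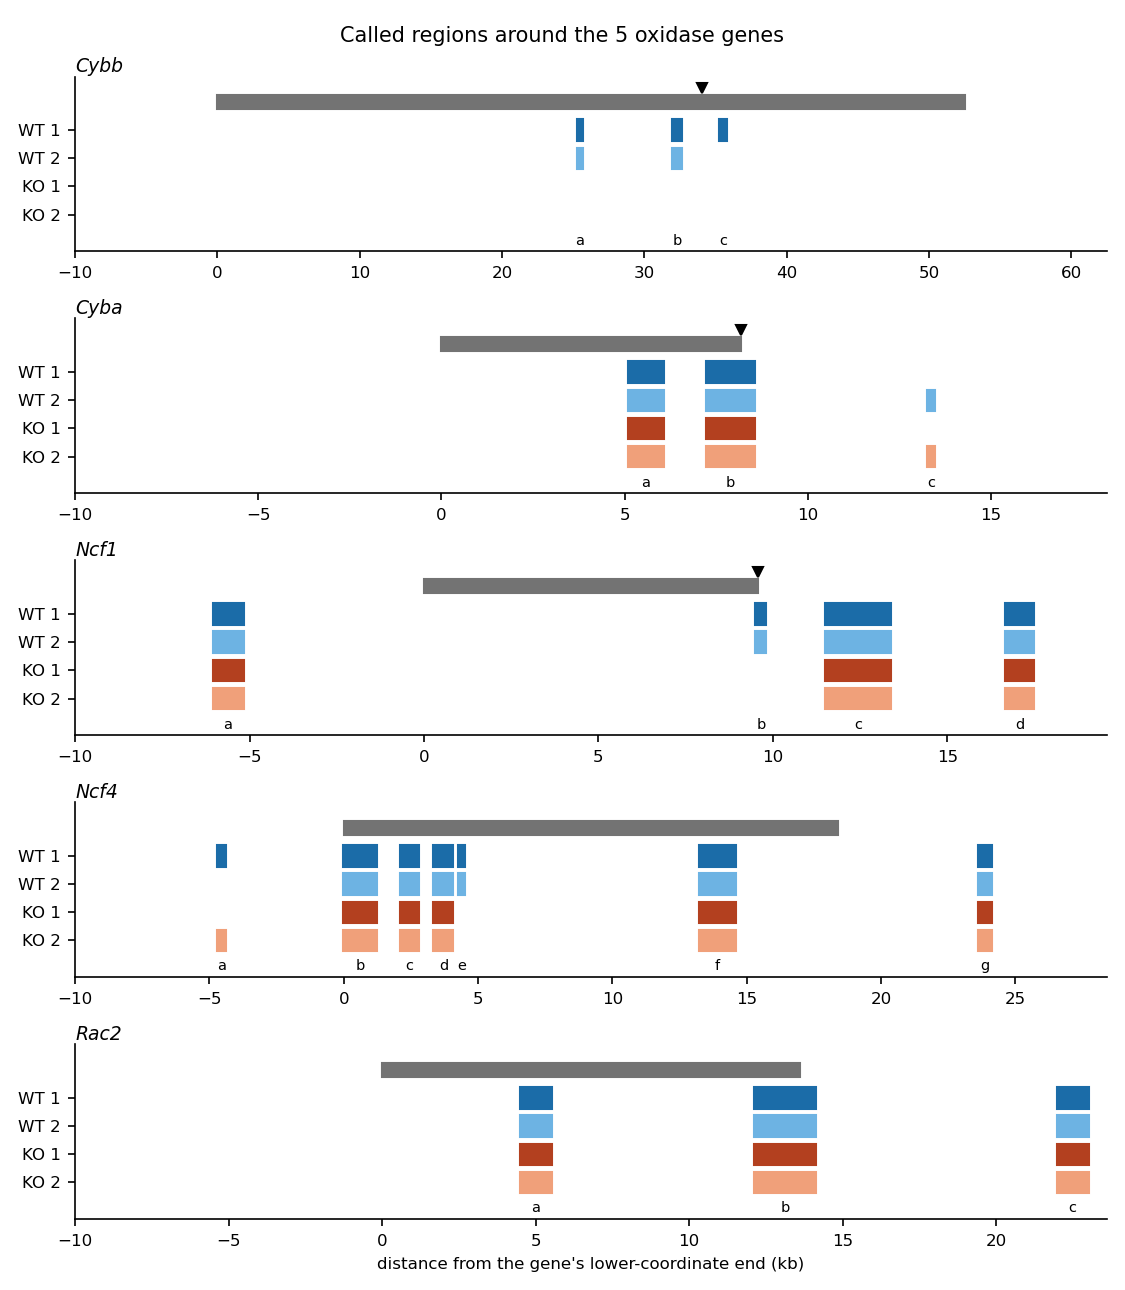
Merged regions around the 5 genes, by distance from each gene's lower-coordinate end in kb (grey bar, gene body; triangle, RefSeq start where the promoter table has one). A coloured bar in a library's row means that the library had a peak in that region. Cybb has bars in the WT rows only, and Cyba and Rac2 have the same regions in at least 1 library of each genotype.

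Regions called in all 4 libraries had the larger median width, 1035 bp (490 to 1997), close to the 961 bp of all regions called in all 4 libraries. The 4 WT-only regions had a median width of 366 bp, beside 440 bp over all WT-only regions of the series. A merged region spans the peaks of every library that called it, so regions called in more libraries tend to be wider by construction. Of the 20 regions, 5 (25%) lay within 1 kb of the end of a protein-coding gene, near the 22.3% of all regions. All 4 libraries called 4 of these 5, beside 7696 of the 10094 such regions in the series.

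**Figure D2:**
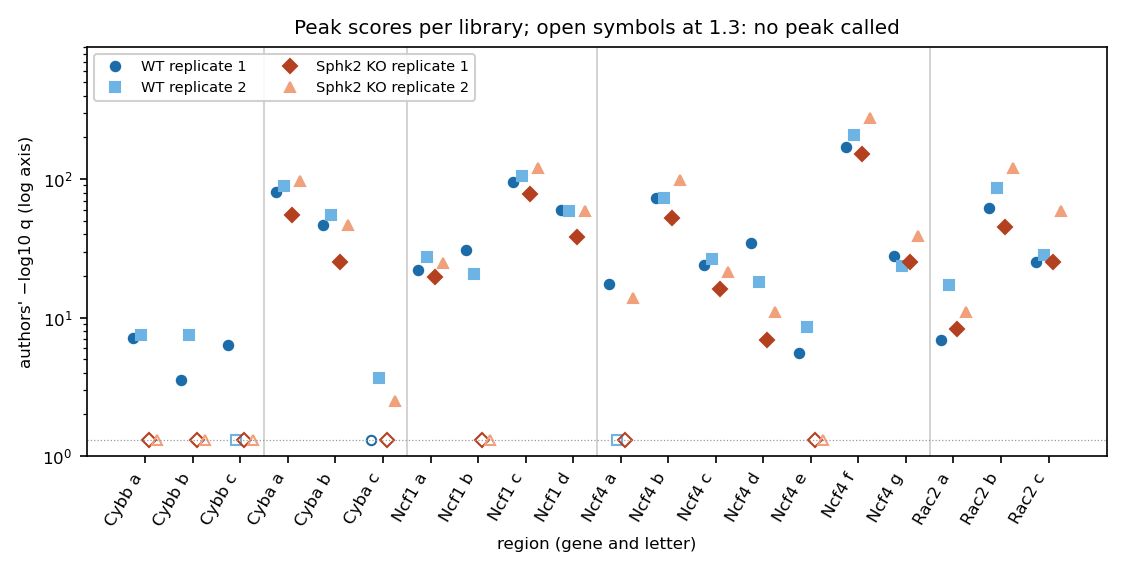
The authors' −log10 q of the best peak per region (log axis) for the 20 regions of the 5 genes, 1 symbol per library. Open symbols at 1.3 stand for no called peak. At Ncf1 b the WT symbols sit at 31.0 and 20.5 and both Sphk2 KO symbols are open, while Ncf4 f is the strongest region in every library, from 153 to 278.

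Cybb, which lies on chromosome X from 9435252 to 9487766 and encodes the catalytic chain, had weak calls in WT and none in either Sphk2 KO library. The first WT-only region, at 9460513 to 9460928, lay inside the gene, 8396 bp downstream of the RefSeq start. Its −log10 q was 7.13 and 7.55 in the WT pair, with fold enrichments of 4.64 and 4.52. The second, at 9467170 to 9467890, ended 1434 bp downstream of the start and had values of 3.56 and 7.55. One more region, at 9470469 to 9471067, began 1145 bp upstream of that start but inside the annotated gene, and was called in WT replicate 1 alone (6.38). These peaks ranked low in their own lists, at 19315, 24970 and 20055 of 31507 in WT replicate 1 and at 20234 for both peaks of WT replicate 2, of 31843. No library had a peak at the start or near either end of the gene, although 38.9% of 21263 starts of protein-coding genes had one in all 4 libraries. Chromosome X as a whole was called in both genotypes: 57% of its 547 regions were called in all 4 libraries and 5.3% in WT only.

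The missing Cybb calls were set against depth, taking the pileup per 1000000 retained fragments as the scaled pileup. The authors' p-values follow a Poisson law of the summit pileup and the local background: recomputed from these, at least 99.8% of the peaks of every library came within 2% of the deposited −log10 p. With the WT background per fragment, a summit pileup of 11 fragments would have been called in each Sphk2 KO library. The WT pileups were 20 and 22 at the first region and 15 and 22 at the second, where the lowest pileup called anywhere in the WT lists was 11 and 12. At the depths of Sphk2 KO replicates 1 and 2, the mean WT pileup per fragment comes to 15.9 and 17 at the first region. At the second it comes to 14 and 15. The 2 regions were singled out as called in WT and missed in Sphk2 KO, so their WT pileups give no estimate of a difference between genotypes, and the part of depth in the missing calls was not tested.

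Cyba, on chromosome 8 from 122424771 to 122432940, encodes the partner chain of gp91phox and had its start called in all 4 libraries. The ends of Zc3h18, Il17c and Mvd also lay in its window. The region over its start, 122431994 to 122433336, had a −log10 q of 46.4 and 54.9 in the WT pair and 25.3 and 46.8 in the knockout pair. Fold enrichment there was 5.42 and 5.18 in the WT pair and 4.95 and 5.2 in the knockout pair, so the groups overlapped. A stronger region lay inside the gene, at 122429860 to 122430838, 2102 bp downstream of the start, with 81.0 and 88.8 in the WT pair and 55.0 and 96.6 in the knockout pair. Its fold enrichment was 7.51 and 6.9 in the WT pair and 7.5 and 7.87 in the knockout pair. A further, weak region at 122438019 to 122438256 was called in replicate 2 of each genotype (3.68 and 2.48). It lay inside Mvd, which encodes a decarboxylase of sterol synthesis.

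Ncf1, on chromosome 5 from 134220053 to 134229628, encodes the organiser p47phox and was the member whose start was called in WT alone. The region spanned 134229549 to 134229865 (Ncf1 b) and held the RefSeq start at 134229625, with its mean summit 4 bp upstream of it. Its −log10 q was 31.0 and 20.5 in the WT pair, and no peak was called in either Sphk2 KO library. It ranked 9192 of 31507 and 12960 of 31843 in the WT lists. Counted by gene, the same call made Ncf1 the 1 of the 5 members whose gene-end peaks were WT-only. That was a pattern of 1.27% of 21887 protein-coding genes. The reverse pattern was shown by 0.101% of those genes and by no member. The sequence printed for Ncf1 covers this region's upstream part, including the interferon response match.

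The neighbouring regions at Ncf1 were called in all 4 libraries. The strongest lay upstream, at 134231542 to 134233427, 1917 bp from the start, with −log10 q of 95.4 and 106 in the WT pair and 78.7 and 120 in the knockout pair. The region at 134236702 to 134237537, nearest to the end of Gtf2i, a general transcription factor gene, had 60 and 58.5 in the WT pair and 38.0 and 59.3 in the knockout pair. A region inside Gtf2ird2, at 134213994 to 134214881, had 22.1 and 27.6 in the WT pair and 19.5 and 25 in the knockout pair. At all 3 the values of the genotypes overlapped.

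Local background at the Ncf1 start was worked out from pileup and fold enrichment. The fold enrichment there was 3.73 and 2.8 in the WT libraries, although the summit pileups were 123 and 126 fragments, or 3.63 and 3.66 as scaled pileup. The background behind these folds was 32.2 and 44.4 fragments, against a genome-wide level of 2.82 and 3.26. At the upstream neighbour the background per 1000000 fragments was 1.13 and 1.52 in the WT pair and 1.27 and 2.28 in the knockout pair, so Sphk2 KO replicate 2 had the highest. With the neighbour's background, a call at the start would have needed a pileup of 55 in Sphk2 KO replicate 1 and of 92 in replicate 2. Scaled by the ratio of the 2 backgrounds in WT, the needed pileups were 48 and 80. The mean WT pileup per fragment comes to 94.3 and 101 at the depths of Sphk2 KO replicates 1 and 2. The region was singled out as WT-only, so these 2 values give no estimate of a difference between genotypes. The pileup reached there in Sphk2 KO is not given by the lists, so the size of the difference between genotypes was not measured, and the part of depth and local background in the missing calls was not tested.

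Ncf4, on chromosome 15 from 78244164 to 78262582, encodes p40phox and held the strongest of the 20 regions as well as 2 adjoining ones with lower or missing scores in Sphk2 KO. The strongest, at 78257378 to 78258774 (Ncf4 f) inside the gene, had −log10 q of 170 and 208 in the WT pair and 153 and 278 in the knockout pair. It ranked 453 and 236 in the WT lists and 100 and 148 in the Sphk2 KO lists. The region at the lower-coordinate end, 78244125 to 78245413, had 72.7 and 72.8 in the WT pair and 52.6 and 98.6 in the knockout pair. Next inside the gene, 78246254 to 78246980 had 24.0 and 26.3 in the WT pair and 16.2 and 21.2 in the knockout pair. Its scores did not overlap between the genotypes, but its ranks, described below, did.

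The adjoining pair in Ncf4 was lower in Sphk2 KO by these scores. The region at 78247505 to 78248246 (Ncf4 d) had −log10 q of 34.8 and 18.0 in the WT pair and 6.92 and 10.9 in the knockout pair, without overlap. Its fold enrichment was 4.24 and 2.86 in the WT pair and 2.64 and 2.41 in the knockout pair, and its scaled pileup was 3.48, 3.08, 1.93 and 3.29, where Sphk2 KO replicate 2 lay between the WT libraries. The region just beyond it, 78248408 to 78248668, was called in WT only (5.56 and 8.54). When a peak within 500 bp counted as present this region was no longer WT-only, because of the neighbour. With the neighbour's background a call there needed a pileup of 35 and 60 in Sphk2 KO replicates 1 and 2, beside pileups of 60 and 83 in the WT pair. The mean WT pileup per fragment comes to 54.1 at the depth of Sphk2 KO replicate 1, above the 35 needed. At the depth of Sphk2 KO replicate 2 it comes to 57.9, below the 60 needed. This region too was singled out as WT-only, so its WT pileups give no estimate of a difference between genotypes. The part of depth and local background in the missing calls was not tested.

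The regions outside Ncf4 did not separate the genotypes by calls. The one at 78267796 to 78268285, 5466 bp beyond the upper end, had −log10 q of 28.0 and 23.4 in the WT pair and 25.1 and 38.9 in the knockout pair. The one at 78239439 to 78239765, 4476 bp before the lower end, was called in WT replicate 1 (17.6) and Sphk2 KO replicate 2 (13.8) only. No other protein-coding gene had an end in the window of Ncf4.

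Rac2, on chromosome 15 from 78559169 to 78572783, encodes the GTPase of the complex, and all 3 of its regions were called in every library. The end of Sstr3, a somatostatin receptor gene, also lay in its window. The region over its upper end, 78571298 to 78573294, was the widest of the 20 at 1997 bp. Its −log10 q was 62.1 and 86.1 in the WT pair and 45.3 and 120 in the knockout pair, so the Sphk2 KO libraries lay on either side of WT. Inside the gene, 78563660 to 78564697 had 6.92 and 17.1 in the WT pair and 8.24 and 10.9 in the knockout pair. A region 8832 bp beyond the upper end, 78581150 to 78582184 (Rac2 c), had 25.2 and 28.2 in the WT pair and 25.3 and 59.0 in the knockout pair. Its fold enrichment was 7.01 and 6.55 in the WT pair and 7.92 and 9.88 in the knockout pair, without overlap. The median fold enrichment over all peaks of a list was also higher in the knockout pair, 6.03 and 6.01 against 5.19 and 5.11.

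Scores depend on depth, so the 13 regions called in all 4 libraries were also ranked in each library over the same 16973 regions, those called in all 4 (100 is the strongest). Both WT ranks by −log10 q were above both Sphk2 KO ranks at 2 of the 13 (21.3% of the 16973), the Cyba start and the Ncf4 region at 78247505. The reverse held at 4 of the 13 (22.1%), 3 of them at Ncf4 and 1 at Rac2. Both counts rest on few regions and stand near these shares, and the median difference in rank, Sphk2 KO minus WT, was 1.29 points over the 13 and 0.0663 over all. Each region without overlap has a two-sided exact permutation p of 0.333, the smallest possible. Without Sphk2 KO replicate 1 the counts were 7 and 5 (34.4% and 36.2% of all ranked regions), and without Sphk2 KO replicate 2 they were 2 and 8 (36.8% and 37.3%), so leaving out either library moved them. By fold enrichment the counts were 1 and 4 (18.1% and 18.6%), and by scaled pileup 0 and 1 (3.59% and 11.4%), the 1 being the Ncf4 region beyond the upper end.

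The Ncf4 region at 78247505 had the largest difference in mean rank among the 13. It stood at percentiles 50.8 and 22.2 in the WT pair and 14.9 and 9.08 in the knockout pair (means 36.5 ± 20.3 and 12 ± 4.08, SD, n = 2 libraries). The difference of 24.5 points is little more than the SD of the WT pair. The Rac2 region beyond the upper end differed the other way, with 39.0 and 37.4 in the WT pair and 55.3 and 60.6 in the knockout pair. This difference of 19.7 points exceeds the SD within either pair (1.16 and 3.78). It is the largest in that direction among the 13 and each SD rests on 2 libraries, so the comparison is a description only. Ranked by fold enrichment this Rac2 region stood at 39.0 and 35.5 in the WT pair and 61.0 and 65.0 in the knockout pair. Its scaled pileup was 1.48 and 1.74 in the WT pair and 1.74 and 3.36 in the knockout pair, where the groups met.

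**Figure D3:**
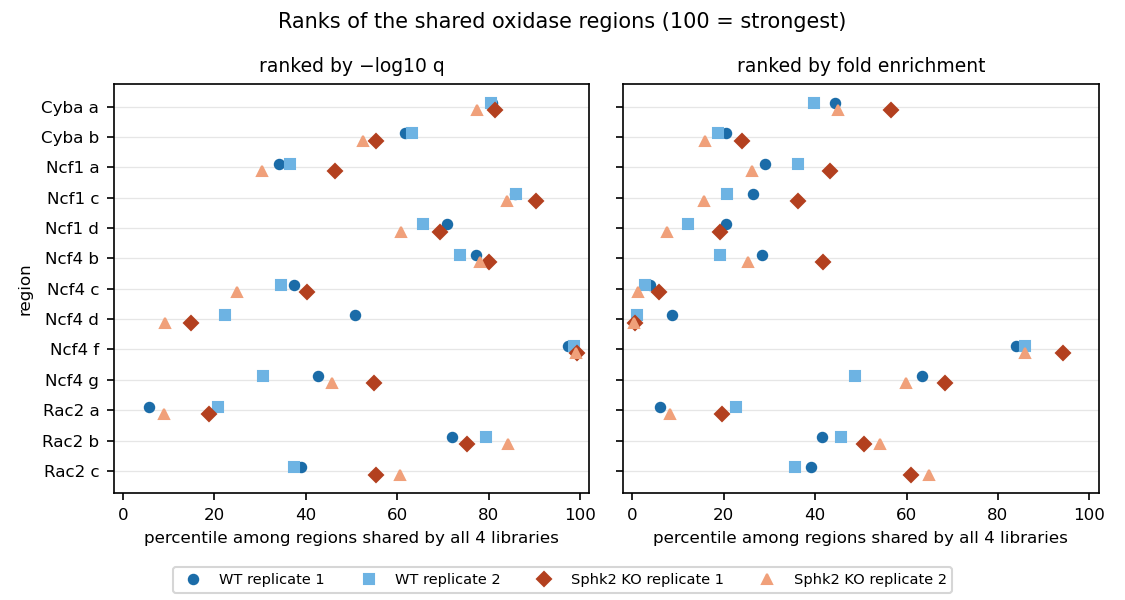
Percentile of the 13 shared oxidase regions among all regions called in all 4 libraries, ranked by −log10 q (left) and by fold enrichment (right), 1 symbol per library. Rac2 c lies to the right in both Sphk2 KO libraries in both panels, and Ncf4 d lies to the left.

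The Cyba start stood at percentiles 61.6 and 63.3 in the WT pair and 55.3 and 52.4 in the knockout pair by −log10 q, but by fold enrichment it had 20.5 and 18.7 in the WT pair and 24.0 and 15.9 in the knockout pair, which overlap. The Ncf4 region at the lower end stood at 77.2 and 73.6 in the WT pair and 80 and 78.1 in the knockout pair, and the one beyond the upper end at 42.7 and 30.6 against 55 and 45.8. The strongest Ncf4 region stood at 97.4 and 98.6 in the WT pair and 99.4 and 99.1 in the knockout pair. Its scaled pileup was 7.29 and 9.03 in the WT pair and 8.46 and 14.4 in the knockout pair, which overlap. Over the 13 regions the median ratio of scaled pileup, Sphk2 KO over WT, was 1.2 (0.795 to 1.58), and over all shared regions it was 1.17. The lowest of the 13 was the Ncf4 region at 78247505 and the highest the Rac2 region beyond the upper end.

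Genes that work with the oxidase had gene-end peaks in most libraries. Of 19 regulators, 16 had one in all 4 libraries (41.6% of all protein-coding genes did), and none was private to a genotype. Gnai2, a G protein subunit below chemoattractant receptors, had −log10 q of 149 and 167 in the WT pair and 113 and 220 in the knockout pair. Pak2, a kinase that Rac activates, had 85.8 and 97 in the WT pair and 55.2 and 112 in the knockout pair. Prex1, a Rac exchange factor gene, had 82.9 and 93.1 in the WT pair and 45.0 and 120 in the knockout pair. Dock2, another one, had 64.2 and 98.6 against 53.5 and 88.3. Hvcn1, the proton channel that balances the oxidase's charge, and Pak1 lacked a peak in Sphk2 KO replicate 1 only, and Tiam1 had none.

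Most genes that handle oxidants had a gene-end peak, while 5 of 9 oxidase genes of other tissues had none in any library. Of these 9, 4 had a gene-end peak in WT replicate 1, 3 in WT replicate 2 and 2 in each knockout library. Over all protein-coding genes the shares were 47.9%, 48.8%, 42.6% and 47.3%, WT first, so the 4 of 9 stood near the share. Nox1, Nox3, Nox4, Duox2 and Noxa1 were the 5 without one. Noxo1, the organiser of another oxidase, had −log10 q of 54.1 and 47.8 in the WT pair and 24.2 and 56.4 in the knockout pair, and Duox1 had 13.1 and 15.4 against 8.92 and 20.6. Duoxa2, a maturation factor, was called in WT only, weakly (4.19 and 5.68), and its neighbour Duoxa1 in WT replicate 1 only (4.19). Of 20 oxidant-handling genes, the same 16 had a gene-end peak in every library and none was private to a genotype. Gclm, of glutathione synthesis, had 154 and 157 in the WT pair and 83.3 and 185 in the knockout pair. The peroxiredoxin gene Prdx5 had 110 and 116 against 83.1 and 187. Its relative Prdx6 had 104 and 128 against 75.3 and 158. Nfe2l2, the transcription factor of the antioxidant response, had 112 and 134 against 85.6 and 144.

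**Figure D4:**
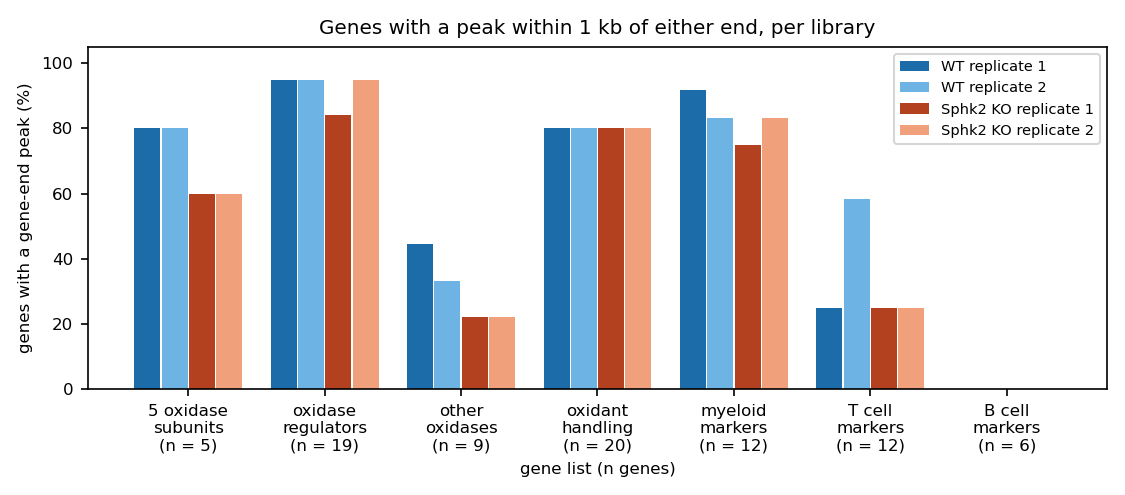
Share of genes (%) with a gene-end peak, by gene list and library. The oxidase subunits stand at 4, 4, 3 and 3 of 5 genes, and T cell markers at 3, 7, 3 and 3 of 12. Over all protein-coding genes the shares, not drawn, are 47.9%, 48.8%, 42.6% and 47.3%, WT first.

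The gene with the rank profile most like a member's, over 4 libraries and 9242 genes with a shared gene-end region, was Ccdc88c for Rac2, with a Euclidean distance of 2.08 percentile points. For Ncf4 it was Brwd3, at 2.24 points, and for Cyba it was Agap3, at 3.35 points. Cybb and Ncf1 had no gene-end region called in all 4 libraries and so no such profile.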

How the data were processed

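ATAC-seq peak lists of 4 libraries (2 WT, 2 Sphk2 KO), each from 20000 cells with 40% of the usual Tn5 per the labels' protocols, were analysed. The submitters' processing notes name cutadapt, BWA, MACS2 and mm10. Per the file headers, each library's peaks come from MACS 2.1.1.20160309, run on fragments of read pairs with no control, at q 0.05, against a local background of 10 kb, keeping 1 fragment per position. The sources used here do not say whether Tn5 offsets were corrected. Each deposited list gives a pileup signal (fragment coverage, not scaled to depth), the −log10 of the p-value and q-value and a fold enrichment ratio. These are the authors' own values for each peak, and counts of reads in regions were not used here. Precision is set by 25877428 to 34443062 retained fragments and 2 libraries a genotype.

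Peaks were merged at 1 bp and genes taken from RefSeq GRCm38.p6 (Python 3.11.15, pandas 2.3.3). A gene-end peak lies within 1 kb of either gene end. Comparisons were exact permutation tests over libraries, or presence beside its share over all regions. Merging and ranking were tested on simulated data. All 5 members and their regions are named, as are genes private to a genotype and the 4 best-ranked of each related list. The members, lists and settings were chosen with earlier results of these data known. The recomputed background and the genes named in the closing section were chosen after values were seen.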

Additional observations from a re-analysis of the deposited data

How the results depend on the processing

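At the oxidase genes the WT minus Sphk2 KO difference in called regions, 4.5, kept its direction under all 12 alternatives, from 3.5 to 5.5 with 1 library left out. With every list limited to its best 20759 peaks it was 3.5, over 19 regions. Within replicate numbers (the replicate block) it was 4.5 with an exact p of 0.5, the smallest possible. Deviations of same-numbered libraries correlated at 0.0117 over 16973 regions, so the numbers gave no sign of pairing. WT-only regions numbered 2 (Ncf1 start and the first Cybb region) when every list was limited to its best 20759 peaks (3.56% of all regions), 3 with −log10 q of at least 5 (5.3%), and 4 to 5 with 1 library left out. That share over all regions was 23.5% and 23.8% without WT replicate 1 or 2, and 6.22% and 13.8% without Sphk2 KO replicate 1 or 2. Sphk2 KO-only regions stayed at 0 in all 11 alternatives. Their share over all regions was 1.96% with lists of equal length. It was 9.79% and 4.93% without Sphk2 KO replicate 1 or 2. Among so few member regions a count of 0 does not set the members apart from such shares. Regions called in all 4 libraries were 8 with gene bodies alone and 27 with 50 kb windows, which hold fewer and more regions. Ranks moved most. Regions better in WT numbered 1 of 13 by fold enrichment (18.1% of all ranked regions) and 0 by scaled pileup (3.59%). With 1 library left out they numbered 2 to 7 (34.4% to 36.8%). Those better in Sphk2 KO numbered 2 of 8 with gene bodies alone (22.1%) and 1 of 13 by scaled pileup (11.4%). With 1 library left out they numbered 4 to 8 (35.8% to 37.3%). The cause was not tested. Both Sphk2 KO libraries were shallower, and the part of depth in the missing calls was not tested. The Cybb peaks rest on 15 to 22 fragments at the summit.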

Other observations

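Among genes that handle oxidants, Cat, which encodes catalase, had a gene-end region whose rank was lower in both Sphk2 KO libraries. It stood at percentiles 41.9 and 38 in the WT pair and 3.76 and 9.75 in the knockout pair of the regions called in all 4 libraries, with −log10 q of 27.4 and 28.6 against 3.7 and 11.4. Nqo1, a quinone reductase gene, stood at 24.7 and 18.8 in the WT pair and 6.09 and 7.31 in the knockout pair. Keap1, the inhibitor of the antioxidant response factor, stood higher in Sphk2 KO, at 74.5 and 68.2 against 50.6 and 51.7 in WT. These 3 genes were singled out after their values were seen. Of the 16 ranked regions in that list, 4 were without overlap in each direction, beside 21.3% and 22.1% of all shared regions.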
